A study of Homo sapiens with 18 samples.

Results

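The data described here are the levels of 10 genes of the bone morphogenetic protein (BMP) pathway in MCF10A cells, a human mammary epithelial line that grows in culture without forming tumors. They are ID1, ID2, ID3 and ID4, SMAD6 and SMAD7, BAMBI, and the ligands BMP2, BMP4 and BMP7. They were found by gene symbol in 3 deposited tables, each of which covers a knockout and its wild type (WT), and were joined by Entrez ID. The tables are called here by their knockout, CBFB, KO1 and KO2. All 10 genes were among the 18517 of the KO1 table and the 18117 of the KO2 table, and 9 were among the 18526 of the CBFB table, where ID2 is not listed.

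The RNA came from 18 samples in 5 groups of MCF10A cells that received no treatment. The CBFB experiment had 3 samples of CBFB KO and 3 of WT. The RUNX1 experiment had 4 samples each of WT and of the clones RUNX1 KO1 and RUNX1 KO2. The knockouts were made with CRISPR-Cas9 and grown from single cells, with 1 CBFB KO clone and 2 RUNX1 KO clones, so what a deletion did and what is particular to a clone cannot be told apart. The paper reports that deletion of either gene transformed MCF10A cells, which then formed tumors in mice. CBFB binds RUNX proteins and strengthens their hold on DNA, and RUNX1 is the DNA-binding partner.

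BMP ligands are secreted and bind paired serine/threonine kinase receptors, which phosphorylate SMAD1, SMAD5 and SMAD9. These enter the nucleus with SMAD4 and switch on the ID genes, the best known direct targets of the pathway. ID proteins lack a DNA-binding region and hold E proteins away from DNA, which delays differentiation. SMAD6 and SMAD7 are inhibitory SMADs that the pathway induces against itself, and BAMBI is a membrane protein that resembles a receptor without a kinase.

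Each table holds 1 level per gene that is used here, the authors' mean of normalized counts over the knockout and WT libraries together. The mean carries no SD and no division into groups. It therefore shows which of these genes knockout and WT MCF10A cells together transcribe, how the genes rank, and how the tables differ. It does not show how far a knockout departed from WT, nor whether the deleted gene itself fell. Levels are also given in parts per 1000000 (ppm) of a table's summed means and, between genes, per kilobase of the longest annotated transcript. The summed means were 20214423 for CBFB, 18050386 for KO1 and 16467400 for KO2, and the library size factors ran from 0.562 to 1.29. Markers of basal epithelium (KRT5, KRT14, KRT17, TP63 and ITGB4) and of epithelium in general (CDH1) had means from 730 to 101688 wherever listed. KRT14 was not listed in the KO2 table. The luminal hormone receptor ESR1 stood between 53.9 and 77.6 and PGR was not listed. Markers of mesenchymal, endothelial and blood cells (PDGFRB, PECAM1, CDH5 and PTPRC) did not exceed 3.42 in any table.

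The promoters of the ID genes are shown first because their levels turned out to span the widest range. Each run covers 30 bases, from 45 to 16 bases before the annotated start of the transcript, taken from RefSeq on GRCh38.p14 and printed 5′ to 3′ on the strand of the gene. Capitals mark exact matches to the letters TATAAA. Similar letters, such as tataag in ID3 and gataaa in ID2, are not marked.
ID1: ggccgtggcgtgttTATAAAagacaagctg
ID2: ccccggcgagtgcggataaaagccgccccg
ID3: ccttccaggcaggctctataagtgaccgcc
ID4: ccggggcgcacggctcTATAAAtacagctg

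These lie at chr20:31605244-31605273 (+ strand) for ID1, chr2:8682011-8682040 (+) for ID2, chr1:23559517-23559546 (- strand) for ID3 and chr6:19837325-19837354 (+) for ID4. ID1, one of the most abundant of these transcripts, and ID4, the scarcest, both carried TATAAA at nearly the same distance, from -31 to -26 in ID1 and from -29 to -24 in ID4. In ID1 a copy on the opposite strand overlapped it. Of the other windows of the named genes, 1 of the 3 SMAD7 start sites held TATAAA. A window ran from 250 bases before to 50 bases after the start. Counted anywhere in it on either strand, TATAAA was in 3 of the 12 windows of the named genes. Over all 35116 promoter windows the share was 11.5%. The search for TATAAA was chosen after the sequences were seen.

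The ID genes filled both ends of the range. The ID1 mean was 1918 normalized counts for CBFB, 2552 for KO1 and 2946 for KO2. The ID3 mean was 1977, 2742 and 3015 in the same order of tables. ID1 and ID3 were therefore near each other in every table, with ID3 higher by a factor of 1.03, 1.07 and 1.02. Each lay above 87.3% or more of the listed genes in all 3 tables. Per kilobase, ID3 reached 78.2, 121 and 146 ppm, and ID1 reached 77.0, 115 and 145 ppm.

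ID2 was much lower, with means of 86.8 (KO1) and 88.4 (KO2). Its mean was below that of ID1 by a factor of 29.4 and 33.3 in those tables. ID4 was barely detected, with means of 1.66 (CBFB), 2.77 (KO1) and 2.81 (KO2). ID1 and ID3 together made up 98.3% (KO1) and 98.5% (KO2) of the summed ID means. With as many knockout as WT libraries in a table, neither group can have had a mean of more than 2 times the pooled one. For ID4 that upper limit was 3.32, 5.54 and 5.63 in the respective tables.

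Among the inhibitors, SMAD7 and BAMBI were present at moderate levels and SMAD6 was scarce. SMAD7 had means of 146 (CBFB), 88.9 (KO1) and 73.8 (KO2). SMAD6 had means of 4.38, 8.23 and 7.21, so the SMAD7 mean was higher than the SMAD6 mean by factors of 33.3, 10.8 and 10.2. BAMBI had means of 158, 211 and 198, close to the middle of all listed genes, above 45.0%, 50.01% and 50.8% of them. Of the 3 inhibitors, only SMAD7 was lower in both RUNX1 tables than in the CBFB table.

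Of the 3 named ligands, BMP2 was the main transcript. Its means were 56.0, 43.0 and 42.0, and it made up 80.9%, 79.8% and 75.3% of the summed means of BMP2, BMP4 and BMP7. BMP4 had means of 3.64, 3.49 and 4.17. BMP7 had means of 9.60, 7.42 and 9.63. The ligand transcripts were thus far below those of ID1 and ID3, which held 91.1%, 92.1% and 93.3% of the summed means of all listed genes among the 10.

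**Figure D1:**
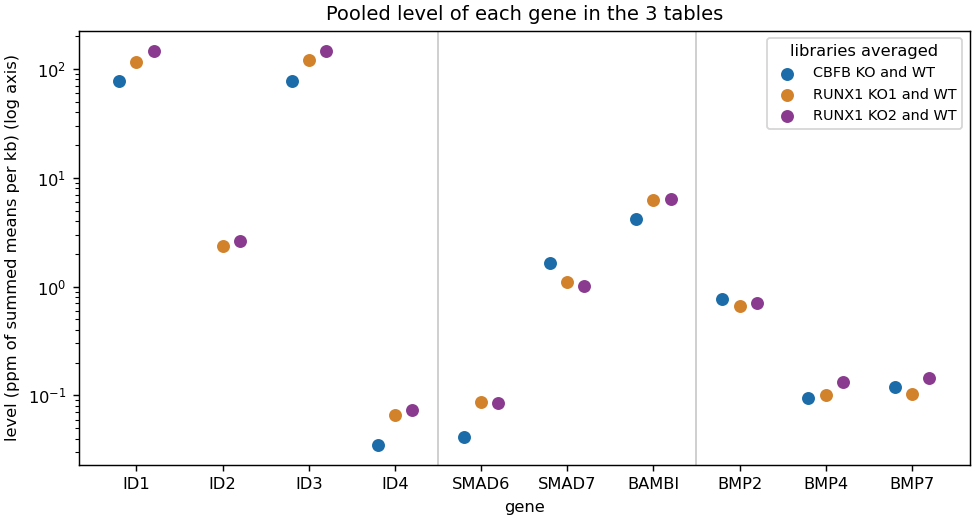
Level of each gene in ppm of summed means per kilobase (vertical log axis), with 1 point per table, pooled over its knockout and WT libraries. ID1 and ID3 stand between 77.0 and 146 in every table, while ID4 and SMAD6 stay at 0.0877 or lower.

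The order per kilobase was the same in all 3 tables for the 9 genes listed in each. It ran from ID3 and ID1 through BAMBI, SMAD7, BMP2, BMP7 and BMP4 to SMAD6 and ID4. ID2 came between BAMBI and SMAD7 in the KO1 and KO2 tables, at 2.36 and 2.63 ppm per kilobase. From the highest to the lowest gene, the level per kilobase differed by factors of 2234 (CBFB), 1854 (KO1) and 2007 (KO2). The tables give no spread over samples, so neighbors as close as ID3 and ID1, or BMP7 and BMP4 at 0.103 and 0.101 in the KO1 table, cannot be ranked.

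For the scarcest genes the number of reads in each library could be worked out. The mean of a gene with 1 read in 1 library depends only on the size factor of that library. These repeated values gave the factors of 6 libraries for the CBFB table and 8 for each RUNX1 table, knockout and WT together. A low mean is then a sum of whole reads over known factors. For ID4 and BMP4, 1 combination of reads gave the mean in each table, and the RUNX1 tables gave the same reads in the libraries they share. For SMAD6, 61 (KO1) and 28 (KO2) combinations gave the mean, and for BMP7 30 and 155, of which 1 pair each had equal reads in the shared libraries. With a tolerance 10 times wider, 2 pairs for SMAD6 and 4 for BMP7 did so. The reads of BMP7 for CBFB had 1 combination at the tolerance used and 4 at the wider one. At the wider tolerance ID4 had 3 (KO1) and 2 (KO2) combinations and BMP4 had 5 and 11. For ID4 and BMP4, still only 1 pair each had equal reads in the shared libraries, so the reads of SMAD6 in the RUNX1 tables and of BMP7 are less certain than theirs. The libraries carry no labels. Those shared by the RUNX1 tables, 4 in number, can be taken as WT, but the reads were not divided into groups. They are listed below from lowest to highest.

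For CBFB, ID4 had 10 reads, as 0, 0, 0, 1, 2 and 7. For KO1 it had 22 reads, as 1, 1, 2, 2, 3, 3, 5 and 5, and for KO2 it had 24, as 0, 1, 1, 2, 3, 5, 5 and 7. ID4 was therefore seen in 3 of the 6 libraries of the CBFB table. It was seen in 8 of 8 libraries of the KO1 table and in 7 of 8 of the KO2 table, never with more than 7 reads. At this depth a change of ID4 between groups of 3 or 4 libraries rests on a few reads.

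SMAD6 had 28 reads for CBFB, as 0, 0, 1, 5, 9 and 13. It had 65 for KO1, as 1, 2, 4, 6, 6, 11, 15 and 20, and 59 for KO2, as 1, 2, 2, 2, 6, 11, 15 and 20. In the CBFB table, where the reads of SMAD6 were the same at the wider tolerance, single libraries thus ran from 0 to 13 reads.

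BMP4 had 24 reads for CBFB, as 0, 0, 3, 5, 7 and 9. It had 28 for KO1, as 1, 1, 1, 3, 4, 5, 5 and 8, and 35 for KO2, as 1, 2, 4, 4, 5, 5, 6 and 8. BMP7 had 59 reads for CBFB, as 6, 6, 9, 12, 12 and 14. It had 60 for KO1, as 3, 5, 5, 8, 8, 9, 11 and 11, and 76 for KO2, as 5, 8, 8, 9, 10, 11, 12 and 13. By these combinations BMP7 was in every library of the 3 tables, with 3 to 14 reads each.

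**Figure D2:**
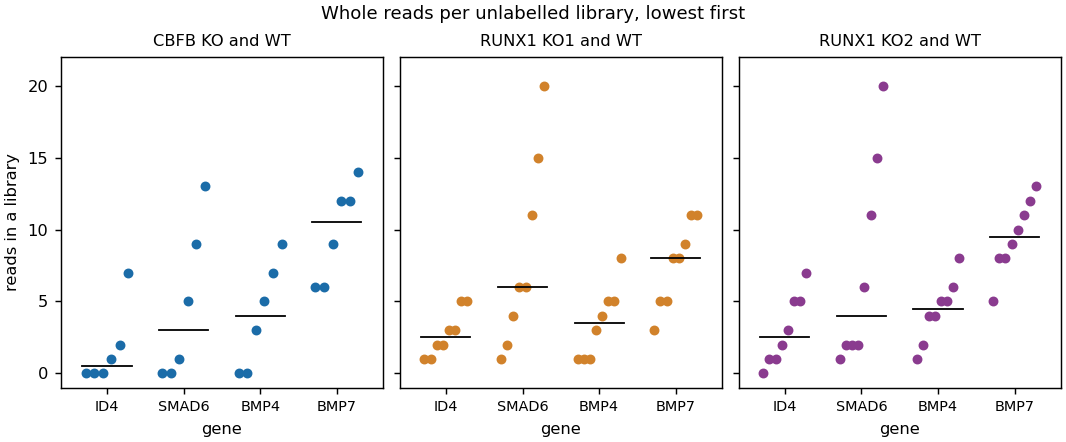
Whole reads of ID4, SMAD6, BMP4 and BMP7 (vertical axis) in each library, 1 point per unlabelled library and sorted from lowest to highest, with a line at the median. ID4 stays at 7 or fewer reads and BMP4 at 9 or fewer, while SMAD6 and BMP7, less certain in the RUNX1 tables (and BMP7 for CBFB), reach 20 and 14.

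The RUNX1 tables shared their WT. The labels list 1 set of 4 WT samples for that experiment, and the single-read genes were used to find libraries common to both tables. A library was taken as common only if all genes with a sole read there had it in the same library of the other table. By that rule 4 libraries were common, as many as the WT samples, with 265 such genes. The rule itself leaves 0 such genes in another library. On 1 scale, a difference between the tables therefore comes from the libraries of the clones. It includes variation among those libraries and error in their size factors, neither of which can be measured here. Size factors ran from 0.921 to 1.10 for KO1 and from 0.562 to 1.29 for KO2. The ratio of the table means, on the scale of the common libraries, is the least fold between the clones' observed means that any WT level allows. KO2 means were divided by 0.943, the mean over the 4 common libraries (range 0.934 to 0.948). No replicate value stands behind these ratios, so no test was made, and the 95% Wilson intervals given cover counting error only, counting the reads of the common libraries in both tables.

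ID1 had the ratio farthest from 1 among the genes whose means reached 10 in both tables. Its mean was 2552 for KO1 and 3122 for KO2 on the same scale. This puts the observed mean of the KO2 clone above that of the KO1 clone by 1140 normalized counts. The fold on this scale was at least 1.22 (counting interval 1.201 to 1.25). ID3 followed in the same direction, at 2742 and 3196, or at least 1.17-fold (1.14 to 1.19). ID1 had a higher ratio than 92.3% of all genes and ID3 than 87.3%. ID2, at 86.8 and 93.7, had a ratio of 1.08 with an interval that reached below 1 (0.975 to 1.198), so its direction is not settled.

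The inhibitors did not share that direction. SMAD7 was at 88.9 and 78.2, a ratio of 0.880 (0.790 to 0.979), and only 8.62% of genes had a lower ratio. On this scale the observed mean of the KO1 clone was at least 1.14-fold above that of the KO2 clone. The SMAD7 ratio was 0.891 on the scale of the median gene and 0.909 on that of summed means. Its counting interval was found only on the scale of the common libraries, so it does not settle the direction on the others. BAMBI was at 211 and 210, a ratio of 0.998 (0.932 to 1.07) that became 1.01 and 1.03 on the scales of the median gene and of summed means. BMP2 stood at 43.0 and 44.5, a ratio of 1.04 (0.892 to 1.2). On a given scale, and apart from counting error and variation among libraries, these means bound the fold from below only. Larger differences between the clones are possible where WT supplied most of the reads.

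Of the 6 genes whose means reached 10 in both tables, 1 (ID1, higher in KO2) was 1.2-fold or more apart, beside 12.1% of all 13154 genes. Of those, 1228 were higher in KO2 and 369 lower, a split that became 1739 and 212 on the scale of summed means. On the scale of the common libraries, the median ratio was 1.06 over the 6 genes and 0.989 over all genes. The remaining 4 genes had under 10 normalized counts in at least 1 table. BMP7 had a ratio of 1.38 (0.996 to 1.94), BMP4 of 1.27 (0.764 to 2.04), ID4 of 1.08 (0.616 to 1.93) and SMAD6 of 0.929 (0.654 to 1.31), and no direction could be read from counts this low.

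The CBFB and RUNX1 experiments share no WT, and between their tables the experiment and the deleted gene cannot be told apart. Levels are therefore given side by side, in ppm and in the order CBFB, KO1 and KO2. ID1 stood at 94.9, 141 and 179, and ID3 at 97.8, 152 and 183. BAMBI stood at 7.81, 11.7 and 12.04. These genes were thus higher in both RUNX1 tables, with KO1 over CBFB ratios of 1.49, 1.55 and 1.495.

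SMAD7 went the other way, at 7.22, 4.92 and 4.48 ppm, a KO1 over CBFB ratio of 0.682. BMP2 was similar throughout, at 2.77, 2.38 and 2.55. SMAD6 at 0.217, 0.456 and 0.438 and ID4 at 0.0820, 0.154 and 0.171 were higher in the RUNX1 tables, each on the few reads listed above. BMP4 stood at 0.180, 0.193 and 0.253, and BMP7 at 0.475, 0.411 and 0.585. Of the 5 genes whose means reached 10 for both CBFB and KO1, 1 (ID3) was 1.5-fold or more apart, beside 16.7% of all 13370 genes. ID1 and BAMBI fell just short of that threshold. Scaled by the median gene instead, 3 of the 5 passed it, beside 2135 of all 13370 genes. The ratios were then 1.63 for ID1, 1.64 for BAMBI and 1.704 for ID3, while SMAD7 stood at 0.748. In ppm of summed means, the median ratio was 1.49 over these 5 genes and 0.956 over all genes.

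**Figure D3:**
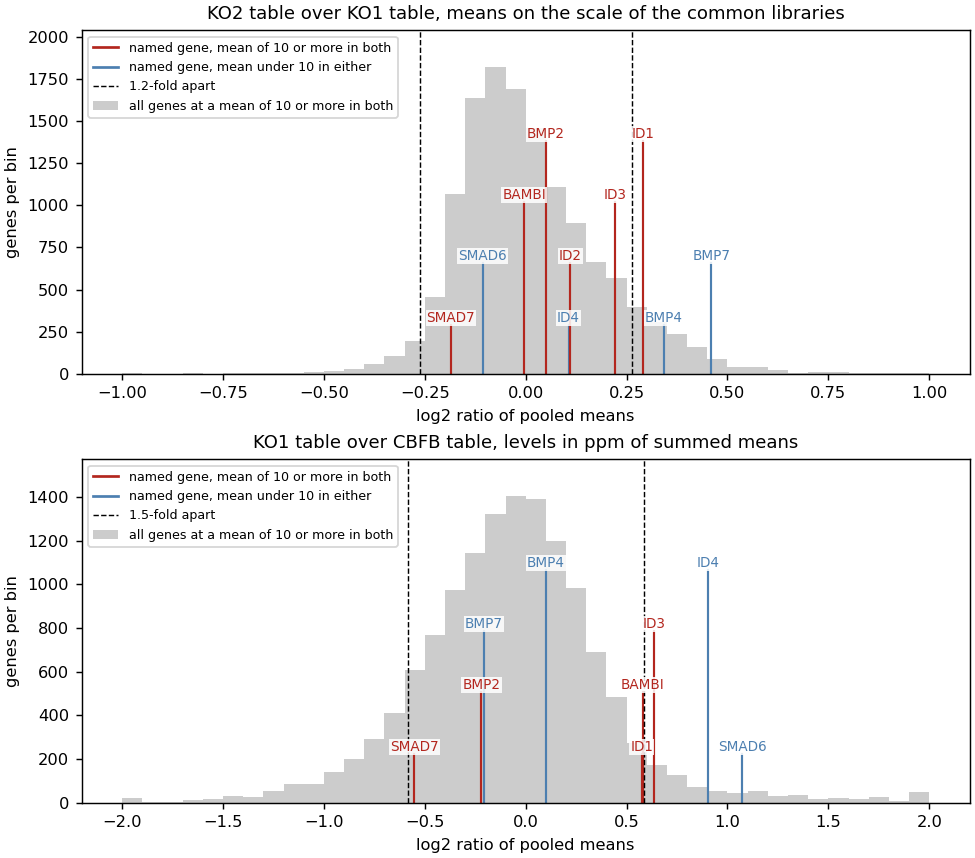
Distribution over all genes of the log2 ratio of pooled means (gray, genes per bin, end bins hold all values beyond), with a vertical line for each named gene whose height has no meaning and dashed lines at 1.2-fold (top, KO2 over KO1) and 1.5-fold (bottom, KO1 over CBFB). ID1 lies past the line at the top and ID3 at the bottom, SMAD7 lies on the opposite side in both, and the genes in blue have a mean under 10 in either table.

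The rest of the pathway was read from a list of 41 genes sorted by role, of which 36 were listed in the CBFB table and 26 had a mean of at least 10 in each table. Among 10 other ligands, 8 were listed in the CBFB table and 3 reached a mean of 10. The highest per kilobase was BMP6, a ligand of the same receptors, at 10.6 ppm per kilobase beside 0.770 for BMP2 in the CBFB table. Of 7 receptors, 6 reached a mean of 10, and ACVR1, a type I receptor, was highest at 6.53. All 3 co-receptors did so, led by ENG (endoglin) at 31.0. All 4 SMADs that carry the signal did so too, led by SMAD5 at 16.6.

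Transcripts of receptors and of signal-carrying SMADs were thus present in these cells. Among 10 secreted antagonists, 3 reached a mean of 10, and NBL1, which binds BMP ligands outside the cell, was the highest. It stood at 79.6 ppm per kilobase in the CBFB table, beside 77.0 for ID1 and 78.2 for ID3, but below both in the KO1 table (87.2) and the KO2 table (105). All 4 ubiquitin ligases and corepressors (SKI highest at 15.1) and all 3 E proteins (TCF3 highest at 31.6) reached it. Between the RUNX1 tables, 1 of the 26 genes was 1.2-fold or more higher in KO2 and 3 were lower, beside 12.1% of all genes past that fold in either direction. Between the experiments, 1 of the 26 was 1.5-fold or more higher in the KO1 table and 11 were lower. Of all 13370 genes, 776 were higher and 1461 lower, 16.7% in either direction. The lower pathway genes included 3 of 6 receptors, 3 of 4 signal-carrying SMADs and 1 of 3 secreted antagonists. The others were 2 of 4 ubiquitin ligases and corepressors and 2 of 3 E proteins, so both carriers and inhibitors of the signal were lower. Scaled by the median gene, 6 of the 26 were lower and 1 higher, beside 916 lower and 1219 higher of all 13370 genes.

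**Figure D4:**
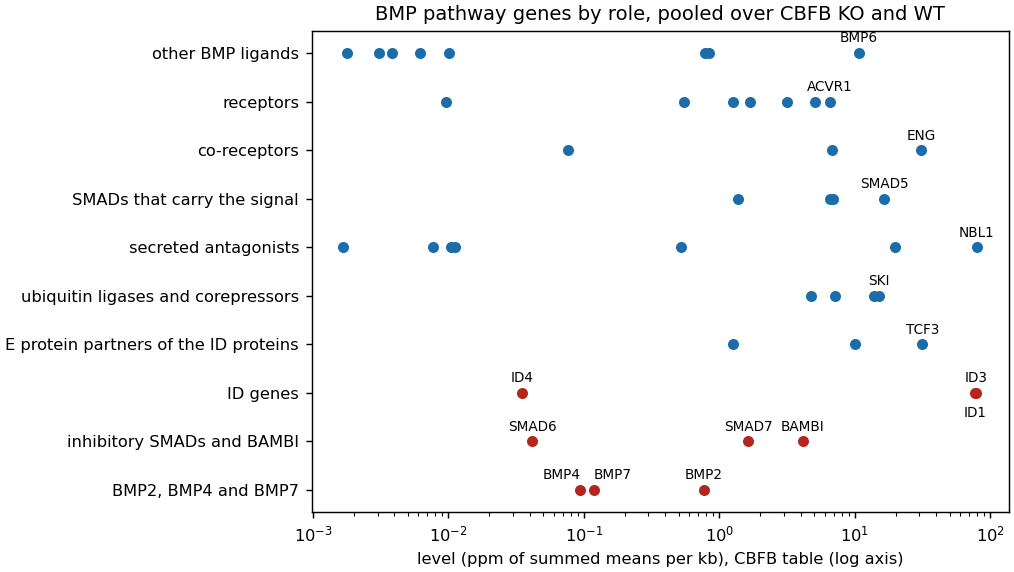
Level in the CBFB table in ppm of summed means per kilobase (horizontal log axis) of each pathway gene, 1 row per role, pooled over CBFB KO and WT libraries. The named genes are red, the rest of the pathway is blue, and the highest gene of each role is labelled. NBL1 is at 79.6, beside 77.0 for ID1 and 78.2 for ID3.

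Promoter windows were matched for 8 of the 10 genes, 12 windows in all, with 3 start sites each for BMP4 and SMAD7. The set of windows used held none for BMP2 or BMP7. All 12 were searched on both strands for TGTGGT, the core that RUNX proteins bind, and GGCGCC, a GC-rich element that SMAD1 and SMAD5 bind. TGTGGT was in 1 of the 12 windows, beside 13.1% of all windows. GGCGCC was in 2 of 12, beside 19.2%. The matches before a start are shown with the motif in capitals, on the strand of the gene (GRCh38.p14, RefSeq).
BMP4 RUNX core: cgggggaaggagTGTGGTggtggtttaaaa
BMP4 GC element: ccggggaacccgGGCGCCcgccccttctac
BAMBI GC element, farthest: gcgcaccagccgGGCGCCccagccgggcgc
BAMBI GC element, middle: gcgccccagccgGGCGCCccagacgccggc
BAMBI GC element, nearest: gccccagacgccGGCGCCgctcggagccgc

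The BMP4 runs lie at chr14:53954512-53954541 (-) and chr14:53955265-53955294 (-). They belong to different start sites, with the RUNX core from -41 to -36 and the GC element from -232 to -227. The BAMBI copies lie close together, at -209, -196 and -181 from the start, in chr10:28677300-28677329, chr10:28677313-28677342 and chr10:28677328-28677357 (+). The BAMBI window was the richest in G and C at 80.0%, beside a median of 58.7% over all windows. Among the ID genes G and C made up 62.7% for ID1, 69.0% for ID2, 59.7% for ID3 and 76.3% for ID4. The ID, SMAD6 and SMAD7 windows held neither motif, which says only that these letters were not in the 300 bases searched.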

How the data were processed

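RNA of MCF10A clones was sequenced by the authors, whose submitted processing notes name Trimmomatic, STAR, DESeq2 and build hg19. The read counter is not given in the sources used here, and sources differ on library preparation (TruSeq mRNA kit in the labels, ribosomal RNA depletion in the paper). The deposited signal used here is the authors' mean of normalized counts over all libraries of a table. The tables also hold the authors' log2 fold changes, their SE, test scores and p-values, which were not used here. There were 0 columns of single samples, so no test, SD or paired fit was made.

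Means were divided by the summed means of their table (ppm) and by the longest GENCODE release 29 transcript. Table ratios used means of at least 10. Whole reads were sought within 2e-09 of the mean, and in the RUNX1 tables had to match in the 4 common libraries. Scripts (Python 3.11.15, scipy 1.17.1) were tested on simulated data. All 10 genes were named. Genes, pathway list and rules were chosen with earlier results of these data known. Alternatives were other scales, transcript lengths, folds and filters. Whether samples came from separate cultures is not stated.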

Additional observations from a re-analysis of the deposited data

How the results depend on the processing

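Counts past a fold moved with the threshold and the filter. Between the RUNX1 tables, 1597 of 13154 genes became 110 at 1.5-fold. With means of at least 100 they became 917 and with no filter 4207, where the number of genes tested also differs. The 1 named gene (ID1) became 0 at 1.5-fold. It became 3 with no filter, where BMP4 and BMP7 joined on few reads and no share of all genes is given. On the scale of summed means 2 named genes (ID1 and ID3) passed, beside 1951 of 13162 genes. That scale was chosen for this count after seeing the data. Between the CBFB and KO1 tables, 2237 of 13370 genes became 647 at 2-fold. With means of at least 100 they became 1279 and with no filter 4914, again of other numbers of genes. The 1 named gene (ID3) became 0 at 2-fold. It became 3 with no filter, where ID4 and SMAD6 joined on few reads and no share of all genes is given. It became 3 (ID1, ID3 and BAMBI) when scaled by the median gene or by the genes in all tables. Of all genes tested, 2135 and 2164 passed on these scales, which were also added later. The 11 pathway genes lower for KO1 than for CBFB became 6 when scaled by the median gene. Unique read combinations fell from 8 to 3 with a tolerance 10 times wider. Requiring equal reads in the common libraries, chosen after seeing the data, gave 12.

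Levels in ppm moved by factors of 0.948 to 1.05 under other scales, and ratios between the RUNX1 tables by 1.01 to 1.03. ID3 reached 1.21 on the scale of summed means. With the median transcript length, BAMBI and SMAD7 changed places. No paired analysis was possible because the tables hold no value per sample. Pooled means limit every comparison, since knockout and WT are averaged together.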
